A study of Mus musculus with 6 samples.

Results

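The genes described here are 36 antioxidant and glutathione defence genes of the mouse, taken by name for their known roles. No threshold on measured values picked them, but the list was drawn up with earlier results of these data known. All 36 had a row in a table of 45583 rows of gene symbols with read counts for fetal cerebral cortex, and 33 of them were among the 13741 genes with enough counts to be tested. The libraries came from male fetuses of the Cyp19-EGFP strain, on an FVBN background, in which a bacterial artificial chromosome adds a copy of Cyp19a1 with EGFP placed before its start codon, so that Cyp19a1 regulatory sequence drives the reporter. The genotype label of all 6 fetuses reads WT, SRY +, and does not say whether a given fetus carried the reporter. In the BPA group (n = 3) the dams were injected under the skin with bisphenol A, a building block of plastics with estrogenic activity. The dose was 50 µg/kg, given between GD10.5 and GD14.5 (GD, gestational day). In the vehicle group (n = 3) the dams were given peanut oil, and cortex was collected at GD15.5 in both groups. Each library was 1 fetus. Whether fetuses shared a dam is not given, so the tests measure the spread between these fetuses.

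No antioxidant gene passed the test between BPA and vehicle. The log2 fold changes of the 33 genes tested, BPA over vehicle, ran from -0.36 (Slc7a11) to 0.55 (Mgst1) around a median of -0.018, beside a median of 0.002 over all genes tested. Lower in BPA were 18 of them (54.5%, beside 49.5% of all genes tested), and 15 were higher. The same 49.5% lower and median of 0.002 over all genes tested stand beside the counts by role and list below. The smallest unadjusted p was 0.0959, for Mgst1, and every adjusted p was 1 by edgeR's quasi-likelihood test with Benjamini-Hochberg adjustment over all genes tested. None had an unadjusted p under 0.05, beside 302 (2.20%) of all genes tested. An adjusted p under 0.1 was reached by 0 (0%) of all genes tested with that test, by 3 with DESeq2 and by 4 with edgeR's likelihood ratio test, and no antioxidant gene was among them. The groups did not overlap for 2 of the 33 genes (6.06%), Mgst1 and Hmox2, both higher in BPA, beside 928 (6.75%) of all genes tested. The 95% intervals of the fold changes reached 0.20 to 0.66 on the log2 scale to either side (median 0.33), and 32 of the 33 lay inside a 2-fold change in both directions. The exception was Mgst1, whose interval ran from -0.11 to 1.22.

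These genes keep reactive oxygen species in check. Nrf2, the transcription factor encoded by Nfe2l2, is held in the cytoplasm and sent for degradation by Keap1. When electrophiles or oxidants modify Keap1, Nrf2 builds up and raises transcription of genes that carry antioxidant response elements, among them those for glutathione synthesis, thioredoxin reductase and quinone reductase. Superoxide dismutases turn superoxide into hydrogen peroxide, which catalase, the glutathione peroxidases and the peroxiredoxins then remove. Gpx1, Gpx4 and the peroxiredoxins do so at the expense of glutathione or thioredoxin. In the developing brain, neurons and their progenitors rely on this supply of reduced glutathione and thioredoxin.

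Total counts were 5030652 to 7180835 in the vehicle libraries and 3444601 to 6426857 in the BPA libraries, with BPA replicate 3 the shallowest. Levels are given as CPM, counts scaled to library sizes that edgeR had normalised, and a count of 0 allows up to 0.422 CPM in the deepest library and 0.875 CPM in the shallowest, counting error only. Marker lists matched the labelled tissue: 10 dorsal pallial neuron markers summed to 3545 to 3939 CPM in vehicle and 3706 to 3939 in BPA, and 10 radial glia markers to 1758 to 1889 and 1695 to 1842. The 9 choroid plexus markers summed to 223 CPM in vehicle replicate 2 and 352 in BPA replicate 2, against 12 to 19.6 in the other 4 libraries, so these libraries stood apart. The 11 ventral telencephalon markers summed to 1051 to 1206 CPM in vehicle and 917 to 1004 in BPA, without overlap. The 10 erythroid markers with a row summed to 286 to 599 CPM in vehicle and 334 to 416 in BPA. Vessel and meninges markers (12) gave 227 to 299 CPM and microglia markers (8) 52.9 to 70.0 CPM over the 6 libraries, with both groups overlapping, and no marker of any list was at 0 in all libraries. Within the vessel and meninges list, the fibroblast genes were uneven. Col1a1 was at 22.7 CPM in vehicle replicate 3 and 13.3 in BPA replicate 2, against 2.06 to 5.5 in the others. Dcn was at 8.87 and 8.29 CPM in the same libraries, against 0.735 to 1.75 in the others. The part of these cell types in the values below was not tested, and in bulk tissue fewer cells of a type and less RNA per cell cannot be told apart.

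The order of levels was read per length, as CPM per kilobase of exon over all 6 libraries. The length was that of all annotated exons of a gene together, so a gene with much annotated exon ranks lower than by CPM. Slc7a11, with 13922 bases, averaged 6.9 CPM, above Nqo1 at 1.18 and Mgst1 at 2.94. Reads listed under pseudogenes, described below, were not included. By this measure Prdx2, which removes peroxides in the cytosol, stood first at 83.7, above Gpx1 at 44.1, Txn1 at 34.4, Txnrd1 at 32.3 and Cat at 30.8. At the other end were Gss at 1.62, Glrx at 1.60, Mgst1 at 1.46, Nqo1 at 0.760 and Slc7a11 at 0.496. Of neighbours in this order, the ranges over the 6 libraries were separate between Prdx2 and Gpx1, Prdx5 (23.3) and Gclc (16.8), Gclm (6.16) and Gpx7 (4.40), and Hmox1 (2.78) and Gss (1.62). All other neighbours above 0 overlapped and were not ordered beyond their spread. Gstp1, the pi-class glutathione transferase, and Txnrd2, the mitochondrial thioredoxin reductase, were listed at 0 in all 6 libraries. Gstp1 shared 33.7% of its 50-base transcript words with Gstp2, which was also listed at 0 in every library, and no level was read for Gstp1 or Txnrd2.

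**Figure D1:**
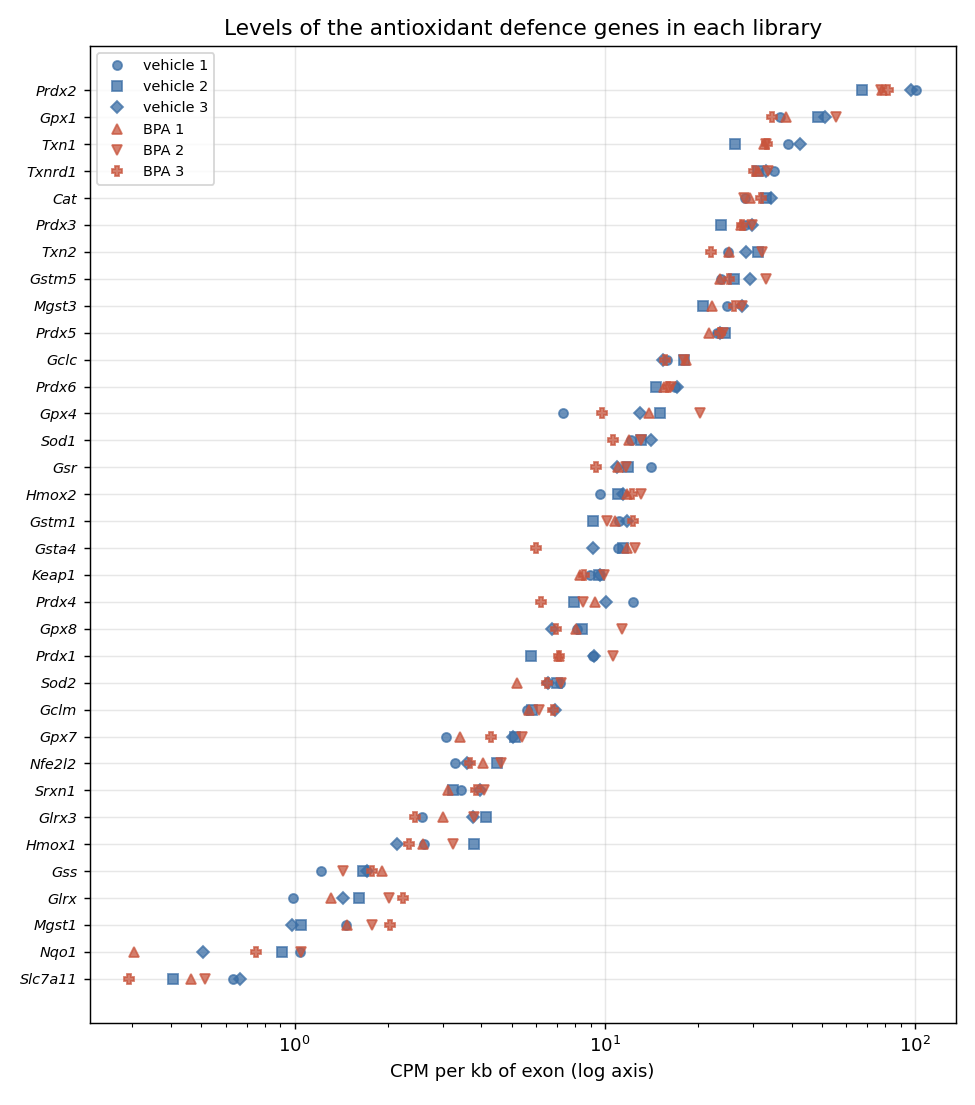
Level of each antioxidant gene in each of the 6 libraries, in CPM per kilobase of exon on a log axis, ordered by the mean (Gstp1 and Txnrd2, at 0, are not drawn). Blue symbols are the 3 vehicle libraries and red symbols the 3 BPA libraries, and the colours are mixed in most rows, from Prdx2 at 83.7 down to Slc7a11 at 0.496.

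The question put to the Nrf2 pathway was whether its sensor, its factor or its commonly used target genes differed after BPA. Nfe2l2 (ENSMUSG00000015839.6, chr2:75675513-75704641, minus strand, GRCm38) was at 12.5, 17.0 and 13.6 CPM in vehicle and 15.4, 17.6 and 14 CPM in BPA. Keap1 (ENSMUSG00000003308.15, chr9:21229730-21239361, minus strand) was at 42.1, 44.8 and 45.2 CPM in vehicle and 38.9, 46.5 and 40.3 CPM in BPA. The groups overlapped for both, with log2 fold changes of 0.13 (SE 0.174) for Nfe2l2 and -0.07 (SE 0.118) for Keap1. Per length, Keap1 was at 9.15 and Nfe2l2 at 3.96 CPM per kilobase.

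Nrf2 acts through the antioxidant response element. Its core, TGACNNNGC on either strand, was looked for in the RefSeq promoters (GRCm38.p6, 250 bases before to 50 after a gene's start). It was present for 8 of the 31 antioxidant genes that matched a promoter (25.8%), beside 2754 of the 18418 genes of the table that did (15%). The 8 were Nfe2l2 itself, Gclm, Gstm5, Mgst1, Txnrd1, Srxn1, Prdx1 and Sod1. Nqo1 and Slc7a11, commonly used Nrf2 targets, were searched and had no match. Gclc, Gsr, Gsta4, Prdx6 and Hmox1 matched no promoter and were not searched. The windows for 5 of the 8 genes with a match are read 5′ to 3′ on the strand of the gene. Capitals mark the match, which in all but Nfe2l2 is the core on the opposite strand (GCNNNGTCA).
Nfe2l2: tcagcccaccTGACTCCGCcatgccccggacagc
Gclm: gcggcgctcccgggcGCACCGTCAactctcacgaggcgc
Txnrd1: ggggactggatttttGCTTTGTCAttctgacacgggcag
Prdx1: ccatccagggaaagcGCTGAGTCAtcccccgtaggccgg
Sod1: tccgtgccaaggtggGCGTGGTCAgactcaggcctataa
The Nfe2l2 window is chr2:75704880-75704913 (minus strand), with the match at position -240 from the start. The Gclm window is chr3:122245408-122245446 (plus), with the match at -134. The Txnrd1 window is chr10:82859099-82859137 (plus), at -92 from 1 of its RefSeq starts. The Prdx1 window is chr4:116685451-116685489 (plus), at -133, and the Sod1 window is chr16:90220691-90220729 (plus), at -56. Of the 8 genes with a match, 2 (25%) were lower in BPA and 6 higher, around a median log2 fold change of 0.052. Over all genes tested 49.5% were lower, around a median of 0.002. None of the 8 had an unadjusted p under 0.05, beside 2.20% of all genes tested. A match describes these letters and is no measured binding site. Sequence outside these windows was not searched, so the lack of a match does not show that a gene has no such element.

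Glutathione is made from cysteine, which enters the cell as cystine through the transporter Slc7a11. Slc7a11 was at 8.82, 5.63 and 9.27 CPM in vehicle and 6.44, 7.15 and 4.08 CPM in BPA, where the lowest value rested on 14 counts. The log2 fold change of Slc7a11, -0.36 (SE 0.26, interval -0.91 to 0.19), was the lowest of the antioxidant genes, and the groups overlapped because vehicle replicate 2 lay below 2 of the BPA libraries. The glutamate-cysteine ligase, the rate-limiting enzyme of glutathione synthesis, is made of a catalytic subunit, Gclc, and a modifier subunit, Gclm. Gclc was at 59.7, 67.7 and 58.0 CPM in vehicle and 68.6, 67.8 and 58.9 CPM in BPA. Gclm was at 35.3, 36.5 and 43.4 CPM in vehicle and 35.8, 38.5 and 42.9 CPM in BPA. Both subunits were thus nearly level between groups, at log2 fold changes of 0.08 (SE 0.114, interval -0.16 to 0.32) and 0.02 (SE 0.128, interval -0.25 to 0.29). Gss, which adds glycine to complete glutathione, averaged 9.04 ± 1.59 CPM in vehicle and 10.1 ± 1.47 CPM in BPA (SD, n = 3 each). Gsr, which returns oxidised glutathione to its reduced form, was at 38.7, 32.7 and 30.2 CPM in vehicle and 30.3, 32.3 and 25.7 CPM in BPA. The groups overlapped, with a log2 fold change of -0.19 (SE 0.138, interval -0.49 to 0.10). The 5 genes had a median log2 fold change of 0.022, with 2 lower and 3 higher in BPA.

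Of the 4 glutathione peroxidase genes, Gpx1 and Gpx4 encode enzymes that reduce peroxides with glutathione. Gpx1, the cytosolic selenoenzyme and highest of the 4 per length, was at 52.7, 70.0 and 73.6 CPM in vehicle and 55.3, 80.1 and 49.9 CPM in BPA, with each group spanning the other's mean. Gpx4, the selenoenzyme that reduces lipid peroxides within membranes and guards against ferroptosis, was at 12.6, 25.9 and 22.3 CPM in vehicle and 23.9, 34.9 and 16.9 CPM in BPA. It had the widest spread of all antioxidant genes within either group, with coefficients of variation of 33.8% in vehicle and 36% in BPA, beside medians of 12.6% and 13.7%. Against this spread the log2 fold change was 0.35 (SE 0.248, interval -0.17 to 0.88). Gpx4 shared 34.7% of its 50-base words with the pseudogene Gpx4-ps2, which had no row among the counts. The counts of Gpx4 are therefore uncertain, and no counts of the copy could be added to them. Gpx7 and Gpx8, peroxidases of the endoplasmic reticulum, averaged 5.70 ± 1.5 and 8.17 ± 0.939 CPM in vehicle and 5.64 ± 1.30 and 9.21 ± 2.37 CPM in BPA. The 4 peroxidase genes divided evenly, with 2 on either side of no change and a median of 0.094.

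Glutathione transferases couple glutathione to electrophiles. Mgst1 (ENSMUSG00000008540.11, chr6:138140316-138156755, plus strand), a membrane-bound member with transferase and peroxidase activity, was at 2.94, 2.11 and 1.97 CPM in vehicle and 2.98, 3.58 and 4.08 CPM in BPA. All 3 BPA libraries lay above all 3 vehicle libraries, but the gap between the highest vehicle and the lowest BPA value, 2.94 and 2.98 CPM, was small, and the counts were only 10 to 22. The log2 fold change of 0.55 (SE 0.312) was the highest of the antioxidant genes. Gstm5, the mu-class member with the highest level per length of this family, was at 30.3, 33.4 and 37.5 CPM in vehicle and 30.0, 42.1 and 32.1 CPM in BPA, so the groups overlapped. Gsta4, which clears 4-hydroxynonenal from lipid peroxidation, averaged 13.4 ± 1.52 CPM in vehicle and 12.8 ± 4.5 in BPA, and Gstm1 averaged 15.7 ± 1.99 and 16.3 ± 1.61. Mgst3, the other membrane-bound member, averaged 26.7 ± 3.87 CPM in vehicle and 27.8 ± 3.11 in BPA. Of the 5 transferases tested, 1 was lower in BPA and 4 were higher (median log2 fold change 0.054).

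The thioredoxin system carries electrons from NADPH through thioredoxin reductase to thioredoxin. Txnrd1, the cytosolic selenoenzyme reductase and a commonly used Nrf2 target, was at 249, 220 and 234 CPM in vehicle and 221, 238 and 214 CPM in BPA. Its log2 fold change was -0.06 (SE 0.0939), with an interval of -0.26 to 0.14 that was the narrowest of the antioxidant genes. Txn1, cytosolic thioredoxin, was at 40.9, 27.6 and 44.6 CPM in vehicle and 34.2, 34.8 and 35.0 CPM in BPA. Its BPA libraries had a coefficient of variation of 1.15%, the smallest of any antioxidant gene in that group, and lay between vehicle replicate 2 and the other vehicle libraries. Txn2, the mitochondrial thioredoxin, averaged 119 ± 12.9 CPM in vehicle and 111 ± 21.9 in BPA. Srxn1, sulfiredoxin, restores over-oxidised peroxiredoxins and is another common Nrf2 target, and was at 9.71, 9.15 and 11.2 CPM in vehicle and 8.79, 11.5 and 10.8 CPM in BPA. Its log2 fold change was 0.05 (SE 0.195), so that 3 of the 4 thioredoxin genes tested were lower and 1 higher, with a median of -0.078.

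Peroxiredoxins remove hydrogen peroxide through a reactive cysteine. Prdx2 (ENSMUSG00000005161.15, chr8:84969587-84974834, plus strand), which is also abundant in red blood cells, was at 307, 205 and 296 CPM in vehicle and 238, 236 and 249 CPM in BPA. Vehicle replicate 2 was the lowest of all 6 libraries and the other vehicle libraries were the highest, so the groups overlapped. The summed erythroid markers were likewise lowest in vehicle replicate 2 (286 CPM) and highest in vehicle replicates 1 and 3 (454 and 599 CPM), with the BPA libraries at 334, 416 and 352 CPM. The part of blood cells in Prdx2 was not tested. The log2 fold change of Prdx2 was -0.16 (SE 0.128, interval -0.43 to 0.11). Prdx4, the peroxiredoxin of the endoplasmic reticulum, was at 25.9, 16.8 and 21.3 CPM in vehicle and 19.5, 17.9 and 13.1 CPM in BPA. Its log2 fold change of -0.31 (SE 0.186, interval -0.70 to 0.08) was the lowest of the family, and vehicle replicate 2 was again the lowest of its group. Prdx1, a cytosolic member, averaged 24.5 ± 5.95 CPM in vehicle and 25.2 ± 6.18 in BPA. Prdx3, in mitochondria, averaged 40.3 ± 4.75 and 41.7 ± 1.85, and Prdx5, found in mitochondria and peroxisomes, averaged 50.4 ± 1.65 and 49.3 ± 2.63. Prdx6, which has a single reactive cysteine and also phospholipase activity, averaged 77.7 ± 6.39 CPM in vehicle and 76.7 ± 2.03 in BPA. The median log2 fold change of the 6 peroxiredoxins was -0.026, with 4 lower and 2 higher in BPA.

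Glutaredoxins reduce protein disulfides that carry glutathione. Glrx, the cytosolic form, was at 5.44, 8.87 and 7.89 CPM in vehicle and 7.22, 11.1 and 12.3 CPM in BPA. Its log2 fold change was 0.43 (SE 0.247, interval -0.10 to 0.96), and BPA replicate 1 lay inside the vehicle range. Glrx3, which serves iron-sulfur cluster delivery, was at 12.9, 20.7 and 18.9 CPM in vehicle and 15.1, 19.0 and 12.3 CPM in BPA, again with overlap.

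Among the enzymes that act on superoxide and hydrogen peroxide directly, Sod1 is the cytosolic copper-zinc dismutase, Sod2 the mitochondrial manganese dismutase and Cat the peroxisomal catalase. Sod1 was at 48.2, 51.8 and 55.8 CPM in vehicle and 47.4, 51.7 and 42.3 CPM in BPA. Sod2 was at 71.5, 70.1 and 65.5 CPM in vehicle and 52.0, 72.2 and 65.1 CPM in BPA. Catalase transcript was at 74.1, 86.2 and 89.9 CPM in vehicle and 76.5, 73.1 and 83.1 CPM in BPA. The groups overlapped for all 3, and the highest BPA library fell inside or just above the vehicle range in each. The log2 fold changes were -0.13 (SE 0.119, interval -0.38 to 0.12) for Sod1 and -0.13 (SE 0.126, interval -0.40 to 0.13) for Sod2. All 3 were lower in BPA, with a median of -0.129, beside 49.5% lower and a median of 0.002 over all genes tested. None of the 3 passed the test.

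Hmox1 and Hmox2, the inducible and the constitutive heme oxygenase, break down heme, and Nqo1 reduces quinones. Hmox2 (ENSMUSG00000004070.15, chr16:4726361-4766742, plus strand) was at 21.3, 24.5 and 25.4 CPM in vehicle and 26.2, 28.9 and 27.1 CPM in BPA. All BPA libraries lay above all vehicle libraries, with a log2 fold change of 0.21 (SE 0.134, interval -0.07 to 0.50). Exons of Cdip1 on the opposite strand overlap 40.2% of the exonic length of Hmox2. Whether the counting used strand is not stated, so how reads within this overlap were assigned is not known. Cdip1 had 653, 630 and 531 counts in vehicle and 554, 545 and 293 in BPA. Hmox2 had 145, 174 and 129 in vehicle and 167, 178 and 93 in BPA. With the counts of Cdip1 added, the log2 fold change was -0.07 and the groups overlapped. That sum is mostly Cdip1 and gives no corrected value for Hmox2. Hmox1, whose induction by Nrf2 is well known, was at 4.56, 6.62 and 3.75 CPM in vehicle and 4.55, 5.69 and 4.08 CPM in BPA, near the same level in both groups (log2 fold change -0.06, SE 0.275). Nqo1, the usual reporter of Nrf2 activity, had 11, 10 and 4 counts in vehicle and 3, 10 and 4 in BPA, and was too low to be tested. Its levels of 1.62, 1.41 and 0.789 CPM in vehicle and 0.471, 1.63 and 1.17 CPM in BPA overlapped, and a difference was not detectable at this depth.

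**Figure D2:**
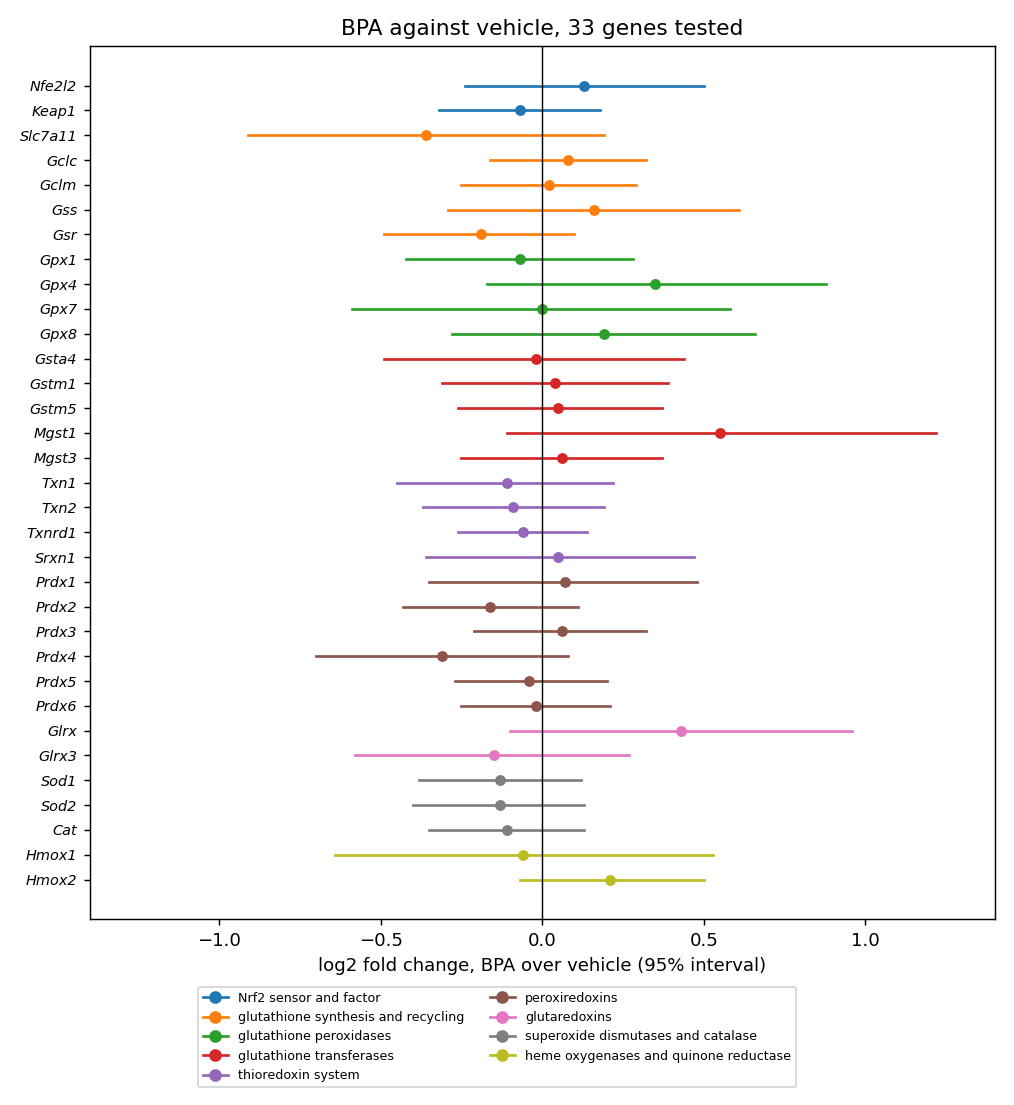
Log2 fold change, BPA over vehicle, of the 33 antioxidant genes tested, grouped and coloured by role. Points are the fitted values and bars their 95% intervals by edgeR's quasi-likelihood test. Every interval crosses 0, and that of Mgst1, at 0.55, is the widest.

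Fetuses of the same group also differed among themselves. Taking each gene's level in a library against its mean over the 6, on the log2 scale with 0.5 CPM added, the median over the 33 genes was -0.03, 0.06 and 0.09 in vehicle replicates 1, 2 and 3 and -0.06, 0.14 and -0.08 in BPA replicates 1, 2 and 3. The same medians over all genes tested were 0.00 to 0.01. BPA replicate 2 thus stood highest, and it held the highest value of 14 of the 33 antioxidant genes and the lowest of 1. BPA replicate 3 held the lowest value of 9 and the highest of 3. BPA replicate 2 was also the library with the most choroid plexus marker counts (352 CPM). The fibroblast markers Col1a1, Col1a2, Col3a1, Lum and Dcn were higher in vehicle replicate 3 and BPA replicate 2, the libraries with the highest medians, than in the others. The part of either cell type in these levels was not tested.

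**Figure D3:**
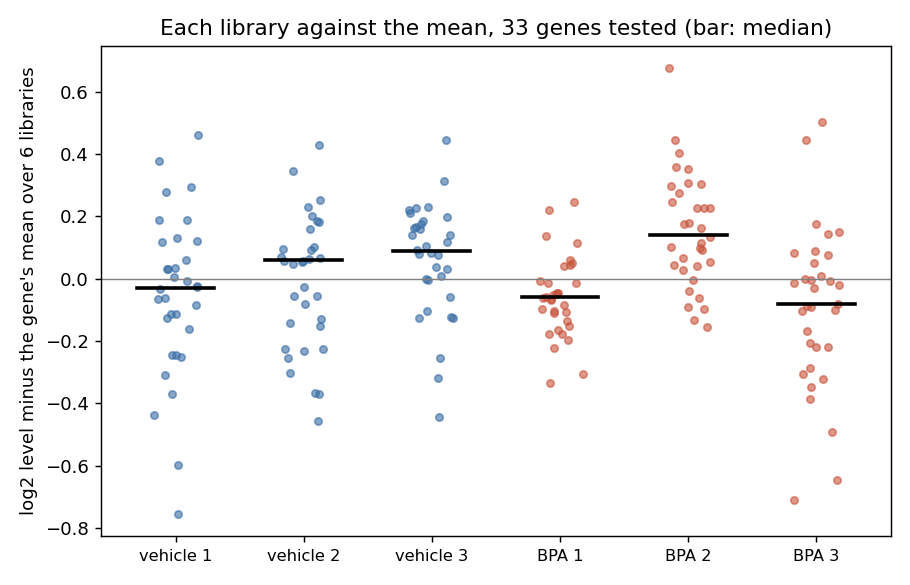
Log2 level of each of the 33 antioxidant genes tested in each library, minus that gene's mean over the 6 libraries (0.5 CPM added before the log). Each point is 1 gene, the bar is the median, and BPA replicate 2 has the highest median, 0.14.

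The values of several antioxidant genes depended on which library was left out. The log2 fold change of Gpx4 ran from 0.04 without BPA replicate 2 to 0.60 without vehicle replicate 2, and that of Prdx4 from -0.46 without vehicle replicate 2 to -0.13 without vehicle replicate 1. Without vehicle replicate 2, 6 of the 33 had an unadjusted p under 0.05, beside 708 (5.10%) of all genes tested in that fit. These were Prdx2 (log2 fold change -0.32, SE 0.0991), Prdx4 (-0.46, SE 0.179), Txn1 (-0.30, SE 0.126), Slc7a11 (-0.56, SE 0.252), Gpx4 (0.60, SE 0.261) and Glrx (0.60, SE 0.274). None passed after adjustment (edgeR, adjusted p = 0.949 for each). The groups then did not overlap for 8 of the 33, beside 2723 (19.6%) of all genes tested. They were Prdx2, Prdx4, Prdx6, Slc7a11 and Txn1, lower in BPA, and Hmox2, Mgst1 and Nfe2l2, higher in BPA.

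With both libraries rich in choroid plexus markers left out, vehicle replicate 2 and BPA replicate 2, 4 antioxidant genes had an unadjusted p under 0.05, beside 954 (6.99%) of all genes tested in that fit. They were Prdx1 (log2 fold change -0.36), Prdx2 (-0.30), Prdx4 (-0.49) and Slc7a11 (-0.70), with adjusted p of 0.579 to 0.7 by edgeR. With all 6 libraries the log2 fold change of Prdx1 was 0.07 (SE 0.196), while Prdx2, Prdx4 and Slc7a11 were lower in BPA as here. In the libraries kept, the summed erythroid markers were 454 and 599 CPM in vehicle and 334 and 352 CPM in BPA, without overlap. The part of blood cells in these values was not tested. The groups, now 2 libraries each, did not overlap for 15 of the 33 genes, beside 4798 (35.2%) of all genes tested. BPA values were lower for 23 of the 33 genes (69.7%, median log2 fold change -0.107), beside 49.3% of all genes tested in that fit (median 0.003). With BPA replicate 2 alone left out, 23 (69.7%) were lower with a median of -0.109, beside 52.2% and -0.009 over all genes. Without BPA replicate 1, by contrast, 14 (42.4%) were lower with a median of 0.016, beside 49.9% and 0.001 over all genes, so the balance of directions changed with the library left out.

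**Figure D4:**
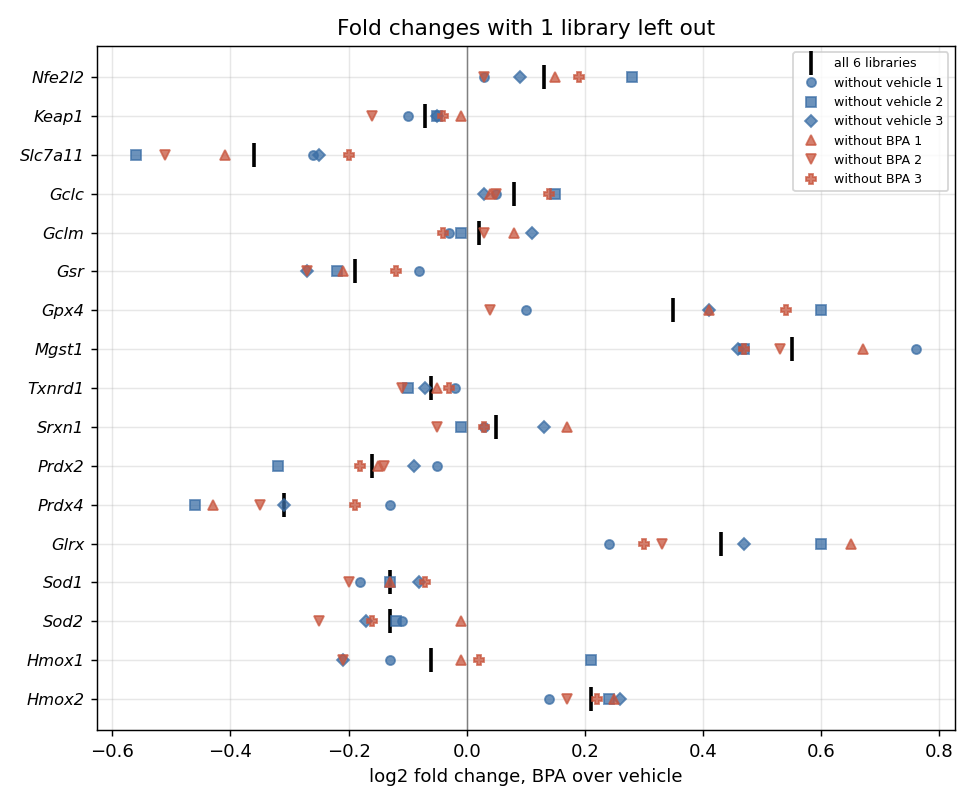
Log2 fold change, BPA over vehicle, of 17 antioxidant genes with all 6 libraries (black bar) and with each library left out in turn (symbols, blue for a vehicle library and red for a BPA library). Leaving out vehicle replicate 2 moves Slc7a11 to -0.56 and Prdx2 to -0.32, and the values of Gclm, Srxn1 and Hmox1 lie on both sides of 0.

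Several antioxidant transcripts have processed pseudogenes, single-exon copies of the spliced transcript elsewhere in the genome, that were listed in the table with counts of their own. Of reads counted to Glrx3 (chr7:137437614-137468594) or its copy Gm12669 (chr4:91805547-91806555, minus strand, 99.1% identical), 67.6% to 76.7% were listed under the pseudogene in vehicle and 73.4% to 78.2% in BPA. For Sod1 (chr16:90220754-90226329) and Gm8566 (chr6:67205619-67206083, plus strand, 97.8% identical), the pseudogene took 48.3% to 52.5% in vehicle and 53.8% to 54.2% in BPA. For Prdx1 and Gm21399 (chr8:129252998-129253594, plus strand, 98.3% identical) it took 45.1% to 55.4% and 51.6% to 55.2%. Smaller shares were listed under Txn-ps1 for Txn1 (24.5% to 31.2% over the 6 libraries), Tdpx-ps1 for Prdx2 (19.5% to 25.2%) and Gstm2-ps1 for Gstm1 (11.4% to 22.0%). More reads were therefore listed under the Glrx3 pseudogene than under Glrx3 itself.

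The copies hold stretches in which exons of the gene are already joined. Each sequence below is 50 bases of the gene's coding sequence in GENCODE M21 (GRCm38), the length of a read, which the pseudogene holds base for base. Small letters are the end of one exon and capitals the start of the next.
Glrx3 exons 1 and 2: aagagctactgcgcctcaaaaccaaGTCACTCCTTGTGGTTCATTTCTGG
Sod1 exons 1 and 2: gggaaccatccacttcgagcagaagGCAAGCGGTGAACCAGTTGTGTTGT
Prdx1 exons 3 and 4: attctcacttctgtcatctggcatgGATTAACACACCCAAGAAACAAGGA
Prdx2 exons 4 and 5: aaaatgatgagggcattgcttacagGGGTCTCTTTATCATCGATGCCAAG
Gstm1 exons 5 and 6: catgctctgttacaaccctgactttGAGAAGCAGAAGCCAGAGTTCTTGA
A read with one of these sequences matches the gene across a splice junction and the pseudogene without one, and the counts alone cannot tell which transcript it came from. How the counting treated reads with several alignments is not stated. The levels of Glrx3, Sod1 and Prdx1 above are therefore uncertain.

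With the pseudogene's counts added, the levels per library were 55.4, 63.9 and 70.2 CPM in vehicle and 57.6, 71.5 and 56.3 CPM in BPA for Glrx3. The log2 fold change of that sum was -0.02 (SE 0.128), against -0.15 (SE 0.201) for Glrx3 alone. For Sod1 the sum was 93.2, 109 and 113 CPM in vehicle and 103, 113 and 92.2 CPM in BPA, with a log2 fold change of -0.03 (SE 0.113) against -0.13 alone. The sums overlapped between groups for both genes. The sum for Prdx1 gave 0.16 (SE 0.157), for Prdx2 -0.12 (SE 0.121), for Txn1 -0.11 (SE 0.156) and for Gstm1 -0.04 (SE 0.15). None of the 6 sums and none of the 6 pseudogenes had an unadjusted p under 0.05. The counts of Prdx5 and Sod2 are uncertain as well. Exons of Trmt112 on the opposite strand overlap 19.1% of the exonic length of Prdx5, and Sod2 shares 16.0% of its 50-base words with Rps6ka2. Other opposite-strand overlaps included 13.9% of the exonic length of Gstm5 and 10.9% of that of Keap1. They also included 6.68% for Gss with Acss2 and 5.8% for Prdx2 with Rnaseh2a, so the same limit applies to these genes.

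**Figure D5:**
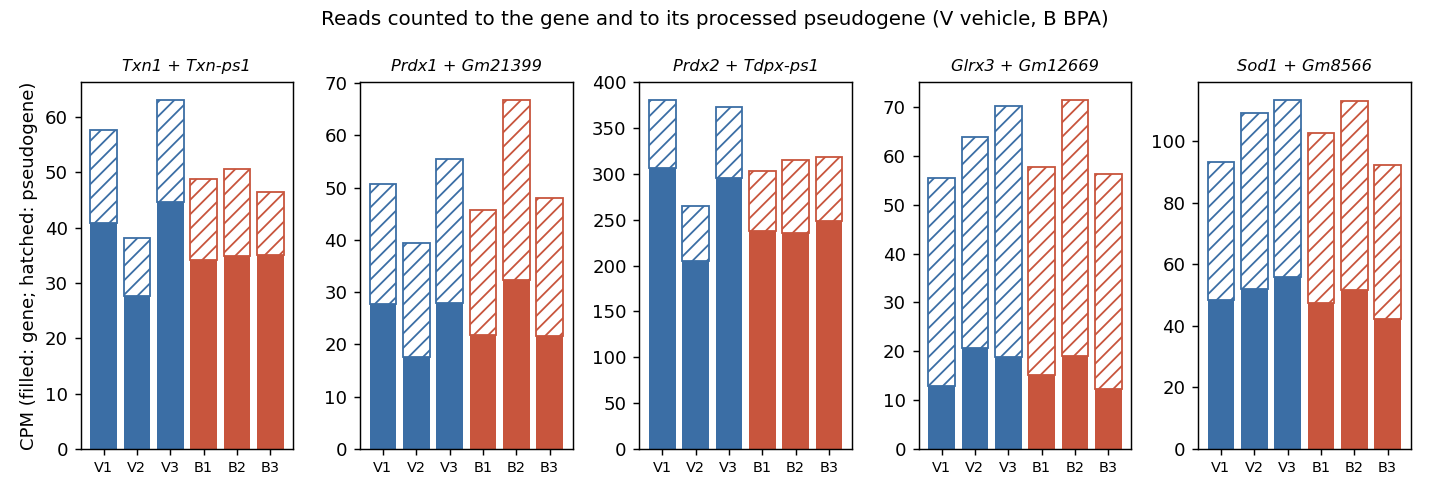
Reads counted to 5 antioxidant genes (filled) and to the processed pseudogene of each (hatched, stacked on top), in CPM, for the 3 vehicle libraries (V, blue) and the 3 BPA libraries (B, red). The hatched part is the larger one in every library for Glrx3, 67.6% to 78.2% of the bar.

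Other genes of the same pathways were read from lists chosen by role. Over 6 lists, 90 of 125 genes were tested. BPA was lower for 49 (54.4%) and higher for 41 of them, beside 49.5% lower over all genes tested. Their median log2 fold change was -0.018, beside 0.002 over all genes tested. Of the 90, 1 had an unadjusted p under 0.05 (2.20% of all genes tested did) and 4 (4.44%, beside 6.75%) had groups without overlap. The former was Ftl1, the ferritin light chain of iron storage and an Nrf2 target, at 88.1, 86.7 and 95.6 CPM in vehicle and 76.9, 54.6 and 63.0 CPM in BPA. Every BPA library lay below every vehicle library, with a log2 fold change of -0.47 (SE 0.127, adjusted p = 1 by edgeR). Ftl1 shares 58.4% of its 50-base words with other genes, and 47.3% with Ftl1-ps1 alone, so the counts of Ftl1 are uncertain too. The 16 other Nrf2 targets tested had a median of -0.051 with 10 lower, and the 12 partners and regulators of Nrf2 a median of -0.031 with 8 lower. The 21 other glutathione genes had a median of 0.049 (10 lower), the 21 other thioredoxin-fold and repair genes 0.026 (10 lower), and the 19 selenoprotein genes, which include factors needed to make Gpx1, Gpx4 and Txnrd1, -0.005 (10 lower). Of 12 genes for superoxide-making oxidase subunits, 1 was tested, Cyba, at 2.67 ± 0.744 CPM in vehicle and 2.33 ± 0.279 in BPA.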

How the data were processed

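The authors deposited read counts per gene symbol for 6 libraries. According to the study's methods and the submitters' processing notes, strand-specific libraries of total RNA gave single-end reads of 50 bases, which were aligned with TopHat2 2.0.14 to GRCm38 and counted by featureCounts on GENCODE models. The strand setting of the counting, and its treatment of reads that align to more than 1 place, are not given in the sources used here. The labels and methods give GD15.5 as the age at collection, and the study's results a later one.

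Counts were analysed in R 4.3.3 with edgeR 4.0.16: genes were kept by filterByExpr (minimum count 10, total 15), scaled by TMM and compared by the quasi-likelihood test, with group as the only term. P-values were adjusted by Benjamini-Hochberg over 13741 genes, with a threshold of 0.1. SE and intervals come from that statistic. DESeq2 1.42.0, limma-voom (limma 3.58.1), edgeR's likelihood ratio test, other scalings and filters, and omission of each library were alternatives. The alternative that added processed pseudogenes and the one that left out both libraries rich in choroid plexus markers were chosen after seeing the data. Replicates were numbered in accession order.

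The 36 genes and all lists were chosen with earlier results of these data known, and no p is given for a list. Per-library values and fold changes are given for Nfe2l2, Keap1, the common Nrf2 targets and the 10 antioxidant genes with the smallest p, and values for the gene highest per length in each role. Other members are given by means. From the pathway lists, genes with an unadjusted p under 0.05 are named. Cyba, the only tested oxidase gene, was named after its values were seen. GENCODE M21 gave positions, exonic length and the share of 50-base transcript words held by other genes. RefSeq promoters matched 31 of the 36 genes. The scripts were tested on simulated data.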

Additional observations from a re-analysis of the deposited data

How the results depend on the processing

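Over all genes tested, an adjusted p under 0.1 was reached by 0 genes in the quasi-likelihood test, by 3 with DESeq2, 4 with the likelihood ratio test, 19 with no filter, 0 to 1 with a library left out and 15 without vehicle replicate 2 and BPA replicate 2. An unadjusted p under 0.05 was reached by 302 genes, and by 126 with DESeq2, 620 with no filter, 162 with the filter at 10 CPM, 194 to 708 with a library left out and 954 without both libraries. No antioxidant gene had an adjusted p under 0.1 in any alternative. An unadjusted p under 0.05 was reached by 0 of them (all genes 2.2%) and by 1 with no filter, Gpx4 (log2 fold change 0.35, SE 0.158, all genes 2.64%). It was reached by 0 to 6 with a library left out (all genes 1.38% to 5.1%) and by 4 without both libraries (6.99%). Without BPA replicate 1 the gene was Glrx (0.65, SE 0.252, all genes 1.4%), and without BPA replicate 3 Gpx4 (0.54, SE 0.236, all genes 2.26%). Groups did not overlap for 2 antioxidant genes (all genes 6.75%), for 1 with the filter at 10 CPM (5.98%) or with copies added (6.75%), for 3 to 8 with a library left out (12.3% to 19.7%) and for 15 without both libraries (35.2%). The number lower in BPA ran from 14 to 23 and the median log2 fold change from -0.109 to 0.020 with a library left out (all genes 49.1% to 52.2% lower, medians -0.009 to 0.004). Of 268 values of the 17 genes followed, 257 kept their direction and 11, from 4 genes, turned: Hmox2 to -0.07 with copies added, Gclm, Srxn1 and Hmox1 within -0.04 to 0.11, -0.05 to 0.17 and -0.21 to 0.21 with a library left out, and -0.00, -0.11 and 0.07 without both libraries. The cause was not tested, other than for the copies, where it is the counts of Cdip1.

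No paired analysis was possible because the labels give no replicate numbers and do not tie fetuses to dams. With 3 fetuses a group and 3444601 counts in the shallowest library, a 2-fold change was outside the interval of 32 of the 33 antioxidant genes. Gstp1, Txnrd2 and Nqo1 could not be tested.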

Other observations

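Further genes of the pathway lists are given here. All genes in this paragraph were chosen after their values were seen. Chac1, which degrades glutathione, was at 4.71, 4.65 and 5.13 CPM in vehicle and 1.41, 4.71 and 2.92 CPM in BPA, with 1 BPA library inside the vehicle range and a log2 fold change of -0.67 (SE 0.348, adjusted p = 1 by edgeR). Fth1, the ferritin heavy chain and partner of Ftl1, was at 249, 265 and 299 CPM in vehicle and 219, 272 and 231 CPM in BPA, with overlap (log2 fold change -0.17, SE 0.107). The other genes of the lists whose groups did not overlap were Taldo1, of the pentose phosphate pathway that supplies NADPH, lower in BPA (95.5 ± 3.68 against 88.0 ± 2.21 CPM), Gstcd, higher (25.4 ± 2.12 against 29.4 ± 1.22), and Msrb1, a methionine sulfoxide reductase, higher (8.48 ± 0.520 against 10.2 ± 0.886). None had an unadjusted p under 0.05. Gstm2-ps1, the pseudogene that shares words with Gstm1, was at 3.4 ± 0.721 CPM in vehicle and 2.42 ± 0.330 in BPA (log2 fold change -0.52, SE 0.313).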
